A study of Mus musculus with 24 samples.

Results

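Expression of 8 genes of cell death and of the c-Jun N-terminal kinase (JNK) pathway, Hrk, Bbc3, Pmaip1, Bcl2l11, Bax, Mapk8, Mapk9 and Mapk10, was followed in RNA-seq libraries of whole mouse spinal cord. The genes were picked by symbol, through GENCODE M21, from the 38924 genes listed in the deposited tables, and 8 of 8 were among the 17409 genes that passed the filter on low counts. They were picked with differences between these libraries already known, so their genotype differences are given below as descriptions without a p-value. The mice carried the P278KY allele of Gars, the glycyl-tRNA synthetase gene, over a wild-type allele, or had wild-type Gars, together with 2, 0 or 1 working copies of Gcn2 (gene symbol Eif2ak4), which encodes a kinase that senses uncharged tRNA. The 24 libraries fell into 6 groups: Gcn2+/+ with the Gars mutant allele (4 libraries) and with wild-type Gars (4), Gcn2-/- with the Gars mutant allele (5) and with wild-type Gars (3), and Gcn2+/- with the Gars mutant allele (4) and with wild-type Gars (4). The Gcn2+/- mice appear in the sample labels but not in the design text. Males and females were unevenly spread over the groups, and the model used below has a term for sex. All mice were 8 weeks old, and their strain background is labelled B6J;CASTxB6.129. Libraries were poly(A)-selected and held 19.7 M to 32.4 M counts on genes. Levels are counts scaled to library size (CPM, per M counts), with the library sizes adjusted by TMM scaling. TPM, which also divides by transcript length and is taken as deposited without TMM, is used where genes are compared with each other. Nothing in the labels says in words that each library is a separate mouse, so p-values measure the spread between these libraries.

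Hrk, Bbc3 (PUMA), Pmaip1 (NOXA) and Bcl2l11 (BIM) encode BH3-only proteins, which bind anti-apoptotic BCL2 proteins or BAX and so start the mitochondrial route of apoptosis. BAX forms the pores in the outer mitochondrial membrane through which cytochrome c leaves to activate the caspases. Mapk8, Mapk9 and Mapk10 encode JNK1, JNK2 and JNK3, kinases that act at the end of a stress cascade and phosphorylate c-Jun. In cultured mouse neurons deprived of growth factor, and in neurons with a damaged axon, JNK and c-Jun are known to raise the transcription of BH3-only genes such as Hrk and Bcl2l11, and Bbc3 and Pmaip1 are classical p53 targets.

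Dominant Gars mutations cause a peripheral neuropathy in mice and people, and whether cell death genes and the JNK pathway differ in the cord is the question put to these libraries. The sequences upstream of Hrk and Dffa are shown because their levels separated the Gars genotypes in both Gcn2+/+ and Gcn2+/-. Each sequence also holds a match to the composite motif described below. Since both grounds were used to pick them, the sequences cannot show that motif and level go together. Hrk was higher and Dffa lower in the mutant. RefSeq (GRCm38.p6) start sites gave windows for 7 of the 8 genes, 12 windows in all, each the 250 bases before the start. Hrk's window is at chr5:118169514-118169763 on the plus strand, inside the GENCODE M21 span of the gene. The window of Dffa, a pathway gene outside the 8 whose level is described below, is at chr4:149103892-149104141 on the plus strand. Each is printed 5′ to 3′, with the match to the composite C/EBP-ATF motif TGATGNAA, the kind of site bound by ATF4 and CHOP with C/EBP partners, in capitals.
Hrk: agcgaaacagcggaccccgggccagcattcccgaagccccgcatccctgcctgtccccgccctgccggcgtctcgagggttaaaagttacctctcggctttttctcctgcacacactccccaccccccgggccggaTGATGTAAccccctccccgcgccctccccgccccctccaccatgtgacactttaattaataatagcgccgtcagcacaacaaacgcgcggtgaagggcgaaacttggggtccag
Dffa: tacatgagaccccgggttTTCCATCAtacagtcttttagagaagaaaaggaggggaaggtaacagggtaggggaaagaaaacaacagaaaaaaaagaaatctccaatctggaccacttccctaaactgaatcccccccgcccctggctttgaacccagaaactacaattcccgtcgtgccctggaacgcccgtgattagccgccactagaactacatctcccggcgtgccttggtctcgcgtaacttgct
The Hrk match reads TGATGTAA and begins 114 bases before the start. The Dffa match lies on the minus strand, reads TTCCATCA on the plus strand and begins 232 bases before the start. Such a match, on either strand, was found in 3.45% of all 32851 mouse windows of the same length. Of the 7 genes with a window, Hrk was the one with this motif. The window of Sesn2, a known ATF4 target described below, held none of the 3 motifs searched. An AP-1 site (TGANTCA, the site of c-Jun dimers, 6.75% of all windows) was in 0 of the 12 windows. A cyclic AMP response element (TGACGTCA, which reads the same on both strands, 1.55% of all windows) was in 1, the Mapk10 window at the 5′ end of the gene's span, 29 bases before the start. The 3 motifs do not overlap in letters in these windows. A match is a string of letters and says nothing of binding, and Pmaip1 had no window in the table.

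Eif2ak4, the gene deleted in Gcn2-/- mice, ran at 11.7 to 14.3 CPM in Gars mutant and 11.4 to 15.0 CPM in wild-type Gars cords labelled Gcn2-/-, at 20.4 to 23.6 and 21.5 to 23.6 CPM in those labelled Gcn2+/-, and at 30.7 to 33.1 and 28.9 to 34.4 CPM in those labelled Gcn2+/+. The labels and the gene's level thus ran in the same order, without overlap between the Gcn2 genotypes. The libraries of 4 cords stood apart in markers of Schwann cells and nerve roots. Their 12 markers summed to 1433 and 3122 CPM in Gcn2+/+ Gars mutant replicates 2 and 4, against 180 to 223 CPM in Gcn2+/+ wild-type Gars cords. In Gcn2+/- the high libraries were of the other genotype, with 165 to 452 CPM in Gars mutant cords against 1437 and 2692 CPM in wild-type Gars replicates 1 and 3. The list's median log2 fold change for the Gars allele was 2.45 in Gcn2+/+ and -2.16 in Gcn2+/-, with 11 of the 12 genes above 0 in Gcn2+/+ and 11 below 0 in Gcn2+/-. Results without these libraries are given below for Hrk, Bcl2l11, Mapk8, Mapk9, Dffa, the motor neuron markers and the genes that differed between backgrounds. For other genes none is given.

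Hrk (ENSMUSG00000046607, chr5:118164648-118189478 on GRCm38) was the only one of the 8 genes whose level did not overlap between Gars genotypes in both Gcn2+/+ and Gcn2+/- cords, and it was higher in the Gars mutant in both. In Gcn2+/+ cords Hrk stood at 6.29, 8.00, 5.99 and 7.17 CPM in Gars mutant libraries, against 5.35, 5.35, 5.09 and 5.35 CPM in wild-type Gars libraries. Every mutant library lay above every wild-type library, and the wild-type values hardly differed from each other. In the order given, the mutant libraries were male, female, female and female, and the wild-type ones male, male, male and female. These CPM values are not adjusted for sex, as the fitted fold changes below are. In Gcn2+/- cords the values were 5.54, 7.03, 7.75 and 7.24 CPM with the Gars mutant allele and 3.97, 4.33, 4.46 and 5.40 CPM with wild-type Gars. The groups were again apart, by a narrow margin between the lowest mutant and the highest wild-type library. Here the mutant libraries were male, male, female and female, and the wild-type ones male, male, male and female. In Gcn2-/- cords Hrk stood at 6.29, 7.21, 5.06, 5.95 and 6.25 CPM in Gars mutant libraries and at 5.58, 6.20 and 6.31 CPM in wild-type Gars libraries. Here the groups overlapped, with the highest and the lowest library both carrying the mutant allele. Means were 6.86 ± 0.911 against 5.29 ± 0.127 CPM in Gcn2+/+ (SD, n = 4 each), 6.89 ± 0.951 against 4.54 ± 0.610 CPM in Gcn2+/- (SD, n = 4 each) and 6.15 ± 0.770 against 6.03 ± 0.393 CPM in Gcn2-/- (SD, n = 5 and 3).

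**Figure D1:**
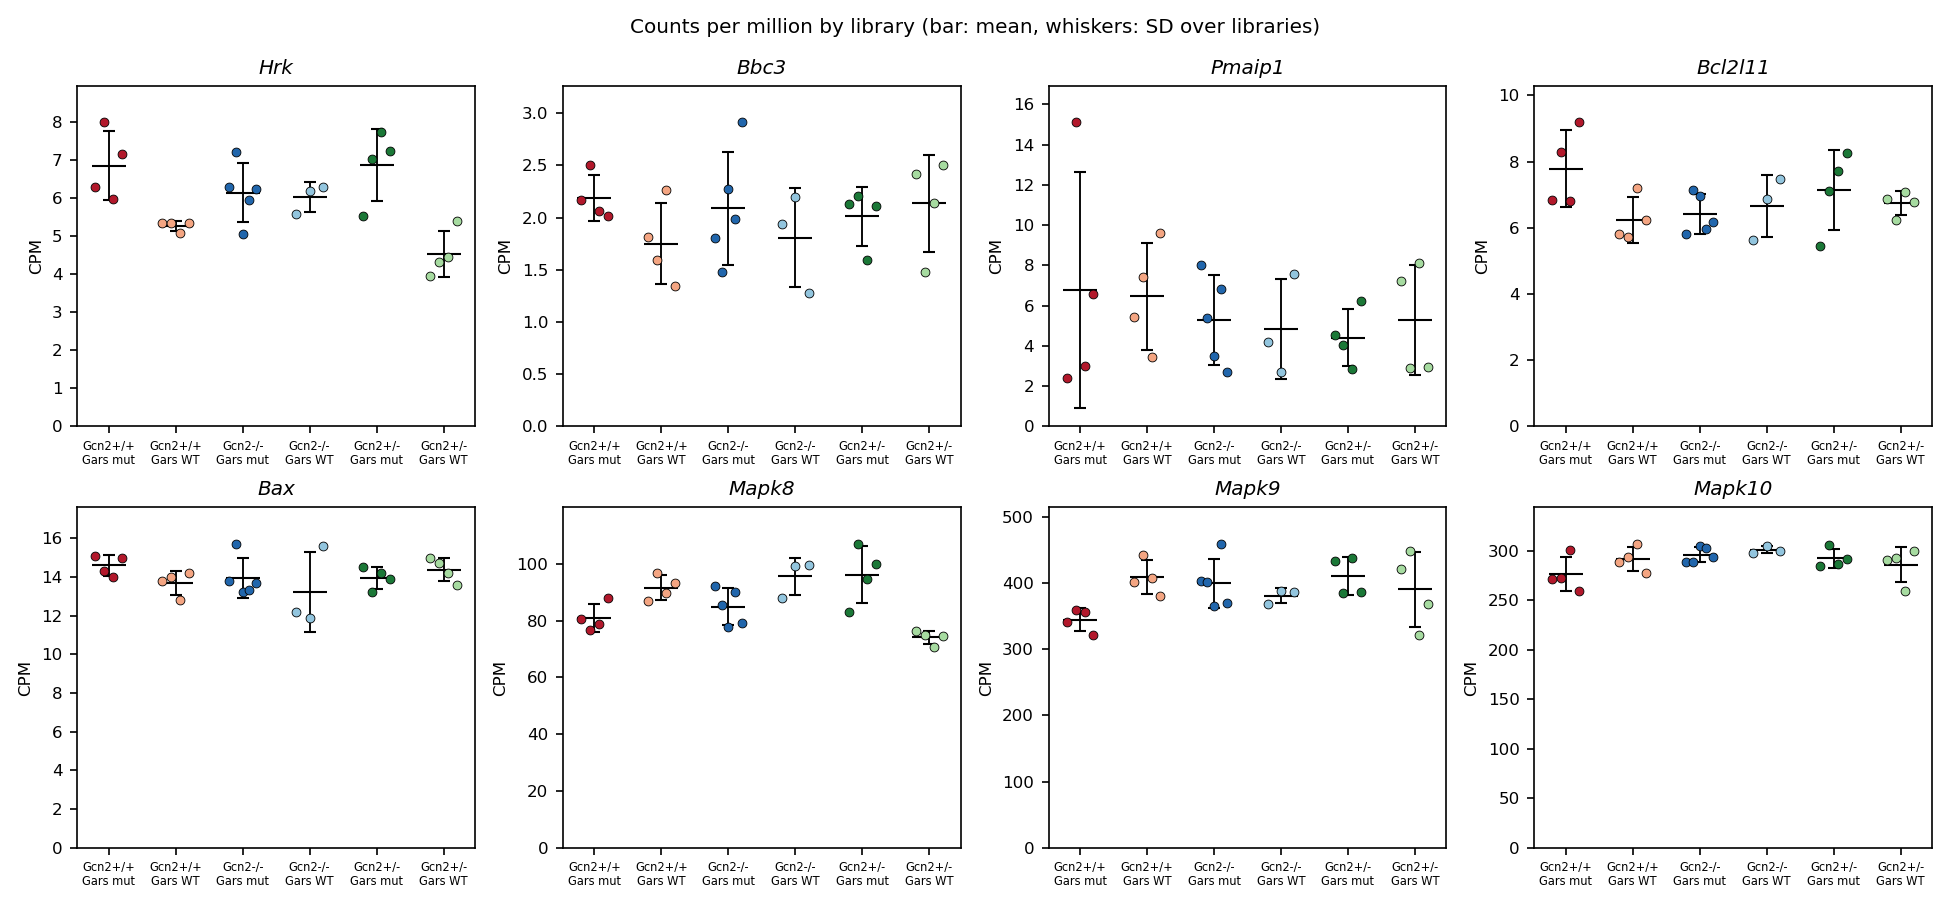
Level of the 8 genes in CPM (vertical axes, from 0) in each library, grouped by Gcn2 and Gars genotype with Gars mutant left of wild-type Gars; points are libraries, bars the mean and whiskers the SD. Hrk mutant libraries lie above the wild-type ones in Gcn2+/+ (6.86 against 5.29 CPM on average) and Gcn2+/- (6.89 against 4.54 CPM) and among them in Gcn2-/-, and Pmaip1 is scattered in every group.

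The fitted log2 fold change of Hrk was 0.30 ± 0.12 (SE) in Gcn2+/+, 0.07 ± 0.12 in Gcn2-/- and 0.57 ± 0.12 in Gcn2+/-. The difference of the Gars effects was -0.23 ± 0.18 for Gcn2-/- minus Gcn2+/+ and 0.26 ± 0.17 for Gcn2+/- minus Gcn2+/+ (95% intervals -0.58 to 0.12 and -0.06 to 0.59). Over all genes tested, 4.06% did not overlap and were higher in the mutant in Gcn2+/+, 3.78% in Gcn2+/- and 2.11% in Gcn2-/- (with 1.71% lower there), and 24 genes (0.138%) did so in both Gcn2+/+ and Gcn2+/-. Hrk was among those 24. The gene was counted in 87 to 243 reads a library, which limits how finely its levels can be told apart. Without the mutant libraries 2 and 4, its fold change in Gcn2+/+ was 0.18, and without wild-type libraries 1 and 3 or under the other settings tried in Gcn2+/- it ran between 0.50 and 0.62. The titles carry numbers whose meaning is not given, and they fall into a lower and a higher set. The first principal component of all genes (17.7% of the variance) had a negative score in every library of the lower set and a positive score in every library of the higher set. The genotype model has no term for the sets, and a model with one is among the alternatives. Wild-type Gars cords with Gcn2-/- are all in the lower set. The Hrk difference was 0.26 in the lower and 0.50 in the higher set in Gcn2+/+, on 2 mutant libraries in each against 1 and 3 wild-type libraries, and 0.53 and 0.65 in Gcn2+/-. In Gcn2-/- it was -0.10 in the lower set. Both differences of effects use the same Gcn2+/+ libraries.

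Markers of neuron types also differed between the Gars genotypes. Motor neuron markers ran opposite to Hrk, and sensory neuron markers ran with it. The 20 motor neuron markers that passed the filter summed to 3329 to 4022 CPM (median 3634) in Gcn2+/+ Gars mutant cords and 5281 to 5878 CPM (median 5370) in wild-type Gars cords. In Gcn2+/- cords the sums were 3833 to 4587 CPM (median 4186) and 4987 to 5802 CPM (median 5407), and in Gcn2-/- cords 4657 to 5128 CPM (median 4787) and 5134 to 5462 CPM (median 5203), again with the mutant allele before wild-type Gars. The mutant libraries were lower without overlap in all 3 Gcn2 genotypes. Of the 20 markers, 12 fell in Gcn2+/+, 9 in Gcn2+/- and 2 in Gcn2-/- mutant cords (edgeR quasi-likelihood test, adjusted p below 0.05), with median log2 fold changes of -0.57, -0.39 and -0.05. Without Gcn2+/+ mutant replicates 2 and 4 the count there was 10, and without Gcn2+/- wild-type replicates 1 and 3 it was 6 in Gcn2+/-. With the groups of a comparison fitted alone it was 4 in Gcn2+/+ and 3 in Gcn2+/-, and with a block for each title number 10 and 2. Of all genes, 0.632%, 0.178% and 0.0115% were past the threshold in Gcn2+/+, Gcn2+/- and Gcn2-/-. In tissue of mixed cells, fewer motor neurons and less of these transcripts per motor neuron cannot be told apart. Across the 24 libraries Hrk's log2 CPM correlated with the summed motor neuron markers at Pearson's r = -0.70 (Spearman's rho -0.69), and with the Schwann marker score at -0.03. These libraries share genotype groups, so the coefficient repeats the group differences and has no p-value. The 5 sensory neuron markers that passed the filter, of 10 listed, summed to 14.2 to 18.3 CPM in Gars mutant and 9.76 to 10.8 CPM in wild-type Gars cords with Gcn2+/+, and to 13.2 to 15.3 and 9.86 to 11.5 CPM with Gcn2+/-, without overlap. With Gcn2-/- they overlapped, with medians of 11.5 and 9.87 CPM. In Gcn2+/+ 3 of the 5 rose, P2rx3, Avil and Tlx3, and in Gcn2+/- 1 rose, P2rx3. Tlx3 is also a transcription factor of dorsal horn neurons, so its level is not particular to sensory neurons. The part of neuron content in the Hrk difference was not tested.

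**Figure D2:**
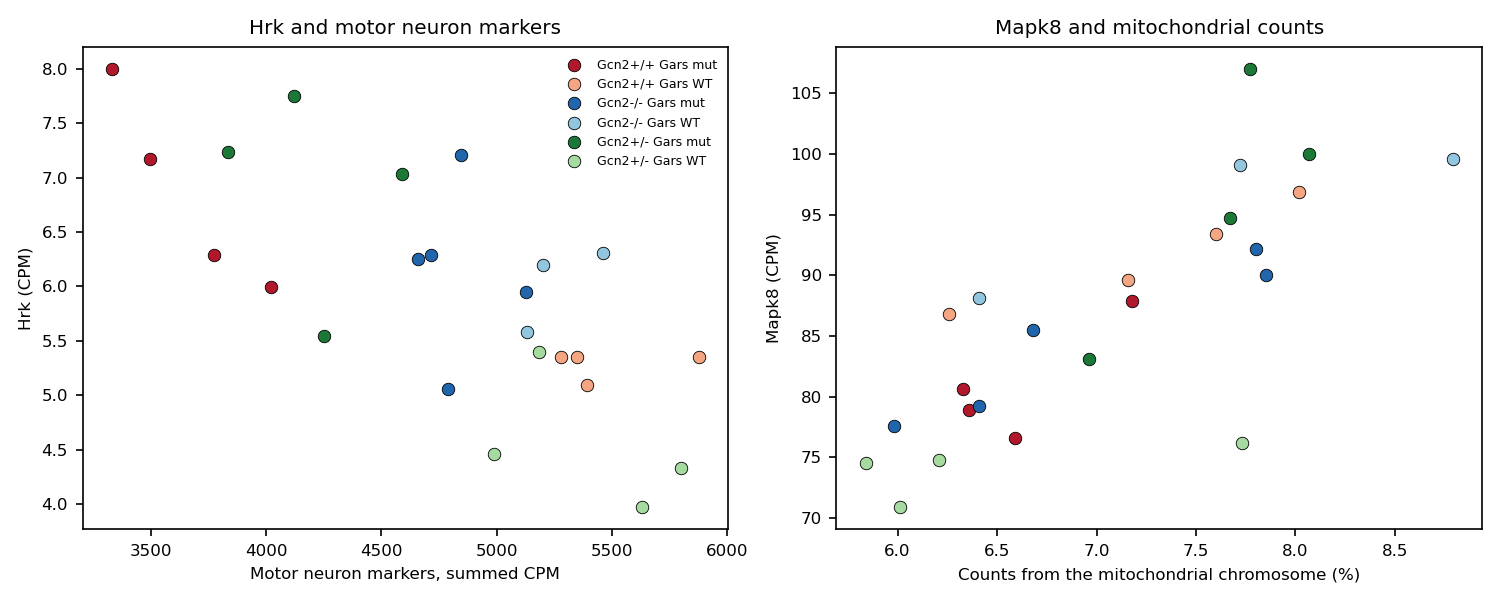
Left, Hrk (CPM) against the summed motor neuron markers (CPM); right, Mapk8 (CPM) against the share of counts from the mitochondrial chromosome (%), 1 point per library, coloured by genotype group. Hrk is high where the motor neuron sum is low (r = -0.70 on the log2 CPM of Hrk), and Mapk8 rises with the mitochondrial share (r = 0.80).

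Among 13546 genes with a mean of at least 1 CPM, those whose log2 CPM followed Hrk most closely over the 24 libraries were Slc7a3, a cationic amino acid transporter (r = 0.75), Nmur2 (0.73), Klhl23 (0.73), Papss2 (0.73) and Ranbp17 (0.73). Those running most opposite to it were Capn1, a calcium-dependent protease (-0.81), Chat, the enzyme that makes acetylcholine in motor neurons (-0.77), C1qtnf5 (-0.76), Nefm, the medium neurofilament (-0.75), and Tpi1, a glycolytic enzyme (-0.75).

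Measured in CPM, the other BH3-only genes did not separate the Gars genotypes in any Gcn2 genotype. Bcl2l11 (ENSMUSG00000027381, chr2:128126038-128162547) stood at 6.85, 8.30, 6.80 and 9.18 CPM in Gcn2+/+ Gars mutant cords, against 5.81, 5.71, 7.21 and 6.22 CPM in wild-type Gars cords. A single wild-type library reached into the mutant range, and the highest mutant values were those of replicates 2 and 4, the libraries with high Schwann markers. Per length, the groups were apart, at 3.42 to 4.64 TPM in mutant and 2.14 to 3.12 TPM in wild-type cords. The share of all genes that were apart in TPM was not counted, and TPM has no TMM scaling, so nothing is read from this. Its log2 fold change in counts was 0.26 ± 0.13 in Gcn2+/+, 0.10 there without mutant replicates 2 and 4, -0.02 ± 0.13 in Gcn2-/- and 0.05 ± 0.13 in Gcn2+/-. Across libraries Bcl2l11 correlated with the Schwann marker score at r = 0.59, and in Gcn2+/+ its difference was -0.08 in the lower and 0.56 in the higher set of title numbers, where both of those libraries are. Bcl2l11 lies on chromosome 2, 9.7 Mb from the Gcn2 locus. Its level with loss of Gcn2 in wild-type Gars cords was 5.63, 6.87 and 7.46 CPM. This range overlapped the 5.71 to 7.21 CPM of Gcn2+/+ wild-type Gars cords and reached past it at both ends.

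Bbc3 (ENSMUSG00000002083, chr7:16308393-16318205) was low, at 31 to 80 counts a library. It averaged 2.19 ± 0.221 CPM in Gars mutant and 1.75 ± 0.393 CPM in wild-type Gars cords with Gcn2+/+ (SD, n = 4 each). With Gcn2-/- it averaged 2.09 ± 0.541 and 1.81 ± 0.478 CPM (SD, n = 5 and 3), and with Gcn2+/- 2.01 ± 0.284 and 2.13 ± 0.463 CPM (SD, n = 4 each), mutant before wild-type Gars. The groups overlapped in each background. Fold changes on the log2 scale were 0.31 ± 0.24, 0.22 ± 0.24 and -0.09 ± 0.23 in the same order of Gcn2 genotypes. The intervals of about 2 SE around all 3 include 0.

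Pmaip1 (ENSMUSG00000024521, chr18:66458533-66465565) was the most variable of the 8. In Gcn2+/+ cords it stood at 2.41, 15.1, 2.98 and 6.60 CPM in Gars mutant libraries and at 5.42, 7.41, 3.43 and 9.63 CPM in wild-type Gars libraries. In Gcn2-/- cords the values were 8.03, 5.39, 3.48, 6.81 and 2.69 CPM in mutant and 4.19, 2.72 and 7.56 CPM in wild-type libraries, and in Gcn2+/- cords 4.53, 4.03, 2.83 and 6.24 CPM in mutant and 7.20, 2.91, 8.10 and 2.95 CPM in wild-type libraries. High and low libraries occurred in each group, with a 6.27-fold range and a coefficient of variation of 53.7% over the 24 libraries, against 4.63% for Mapk10, the steadiest. The log2 fold changes for the Gars allele, -0.06 ± 0.56, 0.21 ± 0.57 and -0.34 ± 0.55, were smaller than their errors. The genes that varied most like Pmaip1 lay on its own chromosome. Of the 10 genes most like it over the libraries, 9 lie on chromosome 18, as Pmaip1 does, and of the 10 most opposite, 10 do, while 2.66% of the compared genes are on that chromosome. Examples are Mbd1 (r = 0.87) and Acaa2 (0.87) on the like side and Rpl17 (-0.88) and Afap1l1 (-0.88) on the opposite side, a pattern looked at after the values were seen.

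Bax (ENSMUSG00000003873, chr7:45461697-45466898, minus strand) averaged between 13.2 and 14.6 CPM in the 6 groups. It stood at 15.1, 14.3, 14.0 and 15.0 CPM in Gcn2+/+ Gars mutant and 13.8, 14.0, 12.8 and 14.2 CPM in wild-type Gars cords, with overlapping ends. In TPM the ranges were apart there, at 41.0 to 45.7 TPM in mutant and 35.6 to 39.2 TPM in wild-type cords. The share of all genes that were apart in TPM was not counted. The assigned transcript length of Bax was 869 bases in every library, but CPM was scaled by TMM and the deposited TPM was not. With library totals in place of TMM, the median log2 fold change of all genes in Gcn2+/+ was 0.07, against 0.01. How much of the gap between both scales this accounts for was not tested. The log2 fold changes were 0.10 ± 0.08 in Gcn2+/+, 0.07 ± 0.08 in Gcn2-/- and -0.04 ± 0.08 in Gcn2+/-. In Gcn2-/- wild-type Gars cords Bax stood at 12.2, 11.9 and 15.6 CPM, the widest spread of the 6 groups. Without the last of these libraries the Gcn2-/- fold change was 0.20. Measured per length, Bax had the highest level of the 5 BCL2-family genes, 40.1 ± 3.33 TPM (SD, 24 libraries), ahead of Pmaip1 at 4.04 ± 2.25, Bbc3 at 3.13 ± 0.673, Bcl2l11 at 3.09 ± 0.563 and Hrk at 2.03 ± 0.383 TPM. The levels of Pmaip1, Bbc3 and Bcl2l11 do not differ beyond their spread.

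**Figure D3:**
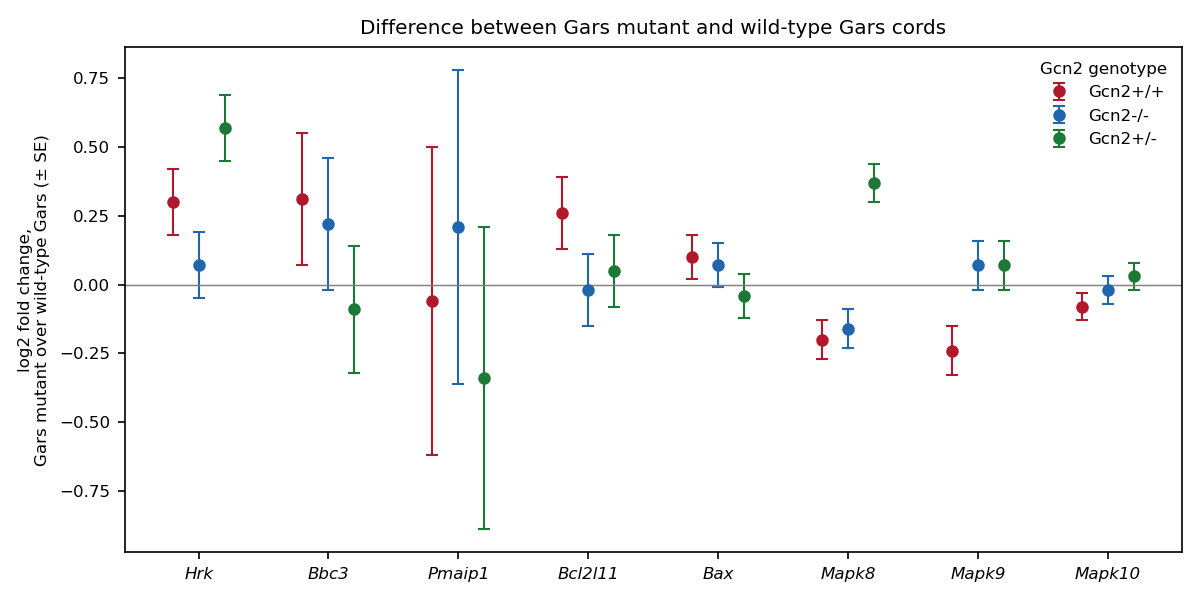
Log2 fold change of each of the 8 genes, Gars mutant over wild-type Gars (vertical axis), in Gcn2+/+, Gcn2-/- and Gcn2+/- cords; points are estimates of the edgeR model and whiskers the SE. Hrk is above 0 in Gcn2+/+ (0.30) and Gcn2+/- (0.57), Mapk8 is below 0 in Gcn2+/+ (-0.20) and above it in Gcn2+/- (0.37), and Pmaip1 has the widest errors.

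The JNK genes were the abundant members, with Mapk9 (ENSMUSG00000020366, chr11:49846751-49886421) at 191 ± 18.1 TPM, Mapk10 (ENSMUSG00000046709, chr5:102907948-103211334, minus strand), the JNK gene known for its expression in neurons, at 155 ± 7.67 TPM and Mapk8 (ENSMUSG00000021936, chr14:33377898-33447158, minus strand) at 49.3 ± 3.38 TPM (SD, 24 libraries). Mapk8 differed by Gars genotype in opposite directions in the Gcn2 backgrounds. In Gcn2+/+ cords it stood at 80.6, 76.6, 78.9 and 87.9 CPM in Gars mutant and at 86.8, 96.9, 89.6 and 93.4 CPM in wild-type Gars libraries, lower in the mutant except for a slight overlap. In Gcn2-/- cords the values were 92.2, 85.5, 77.6, 90.0 and 79.2 CPM in mutant and 88.1, 99.1 and 99.6 CPM in wild-type libraries, again lower with overlap. In Gcn2+/- cords they were 83.1, 107, 94.7 and 100 CPM in mutant and 76.2, 74.8, 70.9 and 74.5 CPM in wild-type libraries, higher without overlap. The log2 fold changes were -0.20 ± 0.07, -0.16 ± 0.07 and 0.37 ± 0.07, and the last was past the threshold of the model over all genes, as was the difference of effects of 0.56 ± 0.10 for Gcn2+/- minus Gcn2+/+. Of all genes, 0.178% were past it for the Gars effect in Gcn2+/- (0.0517% higher) and 3.70% for that difference (2.45% higher), and 1 of the 8 genes was in each. Since Mapk8 was picked with these differences known, nothing is read from its calls, here or in the fits below.

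Mapk8 moved with the share of counts from the mitochondrial chromosome (r = 0.80, rho 0.81 over 24 libraries). That share was 6.96%, 7.77%, 7.67% and 8.07% in Gcn2+/- Gars mutant and 7.73%, 6.21%, 6.01% and 5.84% in wild-type Gars libraries, and 6.33%, 6.59%, 6.36% and 7.18% in Gcn2+/+ mutant and 6.26%, 8.02%, 7.16% and 7.60% in wild-type libraries. With the share as a term in the model, the Mapk8 difference in Gcn2+/- was 0.26 and no longer past the threshold. The call was also lost without wild-type replicates 1 and 3, with the Schwann marker score as a term, in a model with a block for each title number and with the 2 groups fitted alone, with values of 0.31 to 0.37, and the call was kept under 7 of 12 other settings and in 16 of 24 fits that leave out a library. Within the sets of title numbers the Mapk8 difference was 0.51 in the lower and 0.23 in the higher set in Gcn2+/-, -0.17 in both in Gcn2+/+ and -0.28 in the lower set in Gcn2-/-. The Mapk8 difference of effects was kept in 6 of 12 and 14 of 24. Per length, Mapk8 levels were close in all groups, 50.4 ± 2.91 TPM in Gcn2+/- mutant and 47.1 ± 2.99 TPM in wild-type cords, and 50.2 ± 2.75 against 47.8 ± 5.57 TPM in Gcn2+/+ (SD, n = 4 each). In Gcn2+/+ the CPM means and the TPM means thus ran in opposite directions.

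A quantity that enters TPM but not CPM is the mean transcript length that the authors' quantification assigned to Mapk8, which has 9 annotated transcripts. It averaged 3564 ± 313 bases in Gcn2+/- Gars mutant and 3025 ± 172 bases in wild-type Gars cords (SD, n = 4 each), a log2 ratio of 0.21 ± 0.09 (limma, adjusted p = 0.37). In Gcn2+/+ it was 3165 ± 80 against 3557 ± 417 bases, a log2 ratio of -0.20 ± 0.09 (limma, adjusted p = 0.436), and in Gcn2-/- 3195 ± 366 against 3578 ± 248 bases (limma, adjusted p = 0.915). None passed the correction over the 10997 genes with varying length. Lengths moved in the direction of the Mapk8 counts in each background. How much of the gap between both scales they account for was not tested. Hrk (5382 bases), Pmaip1 (2646) and Bax (869) had the same length in every library and were not tested, and Bbc3 (1095 to 1813 bases), Bcl2l11 (3553 to 4641), Mapk9 (3597 to 3981) and Mapk10 (3383 to 3707) had no adjusted p below 0.05. Over all genes, limma called 0 in Gcn2+/+, 0 in Gcn2-/- and 1 (0.00909%) in Gcn2+/-, with 1163, 625 and 1229 at an unadjusted p below 0.05.

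Mapk9 was lower in Gcn2+/+ Gars mutant cords, at 341, 360, 356 and 321 CPM, against 402, 443, 408 and 381 CPM in wild-type Gars cords, without overlap. The means were 345 ± 17.6 and 408 ± 25.7 CPM (SD, n = 4 each), a log2 fold change of -0.24 ± 0.09. Over all genes, 4.16% were lower without overlap in that comparison. In Gcn2-/- cords the mutant libraries ran at 366 to 459 CPM and the wild-type ones at 368 to 388 CPM, and in Gcn2+/- cords at 385 to 438 and 322 to 449 CPM, with a log2 fold change of 0.07 ± 0.09 in each. The differences of effects were 0.31 ± 0.13 for Gcn2-/- minus Gcn2+/+ and 0.32 ± 0.12 for Gcn2+/- minus Gcn2+/+, which share their Gcn2+/+ libraries. Within the sets of title numbers the Gcn2+/+ difference was -0.23 in the lower and -0.26 in the higher set, and without mutant replicates 2 and 4 it was -0.23. Mapk9 correlated with the Schwann marker score at -0.51 and with the summed motor neuron markers at 0.49. The 12 general neuron markers were also lower without overlap in Gcn2+/+ mutant cords. Their sums were 4371 to 4817 CPM there and 4952 to 5639 CPM in wild-type cords. In Gcn2-/- their medians were 5083 CPM in mutant and 5444 CPM in wild-type cords, while Mapk9 averaged 400 and 381 CPM. In Gcn2+/- the medians were 5198 and 5052 CPM, with Mapk9 at 411 and 390 CPM on average. The part of these markers in the Mapk9 difference was not tested. Mapk10 moved least, at 260 to 301 CPM in Gcn2+/+ mutant and 278 to 307 CPM in wild-type cords, with log2 fold changes of -0.08 ± 0.05, -0.02 ± 0.05 and 0.03 ± 0.05 in Gcn2+/+, Gcn2-/- and Gcn2+/-. Its correlation with the Schwann marker score was -0.64 by Pearson and -0.24 by Spearman.

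Under the edgeR quasi-likelihood test with Benjamini-Hochberg adjustment over all genes, 0 of the 8 genes were past 0.05 in Gcn2+/+, where 0.632% of all genes were, and 0 in Gcn2-/-, where 0.0115% were. At an unadjusted p below 0.05 there were 3, Mapk9, Mapk8 and Hrk, in Gcn2+/+ and 1, Mapk8, in Gcn2-/-, and DESeq2 called 0 in both. The share of all genes at that mark was 17.3% in Gcn2+/+ and 4.35% in Gcn2-/-. For the difference of effects, Gcn2-/- minus Gcn2+/+, 0 of the 8 were called by edgeR or DESeq2, against 0.0115% of all genes, and 1, Mapk9, was at an unadjusted p below 0.05, against 4.93%. In Gcn2+/- Hrk was below the unadjusted mark beside Mapk8 and was called by DESeq2. Since the genes were picked with these comparisons known, nothing is read from the counts.

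Loss of Gcn2 with wild-type Gars did not take any of the 8 genes past the threshold by edgeR or DESeq2, with 0 at an unadjusted p below 0.05 (3.68% of all genes) and 0.0287% of all genes called. Hrk had 5.58, 6.20 and 6.31 CPM in Gcn2-/- and 5.35, 5.35, 5.09 and 5.35 CPM in Gcn2+/+ cords, higher without overlap, as 2.27% of all genes were, with a log2 fold change of 0.13 ± 0.13. The wild-type Gars cords of Gcn2-/- mice thus lay between the Gars mutant and wild-type averages of Gcn2+/+ mice, and wild-type Gars cords of Gcn2+/- mice lay below them all on average. The Pmaip1 fold change was -0.50 ± 0.59, and those of the other 6 genes lay between -0.10 and 0.04. Male and female cords, 13 and 11 libraries, did not differ past the threshold for any of the 8. Hrk came nearest, at a log2 difference (male minus female) of -0.14 ± 0.07 (edgeR, adjusted p = 1), and 14 genes, 0.0804% of those tested, differed by sex.

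To place the 8 genes in their pathway, 153 other genes of 12 lists were read in the same model, and 146 passed the filter. In Gcn2+/+ cords 1 rose and 1 fell with the Gars mutant allele, 1.37% of the 146 against 0.632% of all genes. In Gcn2+/- cords 1 fell, 0.685% against 0.178% of all genes. In Gcn2-/- cords 0 were past the threshold by edgeR, with 6 at an unadjusted p below 0.05 (4.11%, against 4.35% of all genes) and 1 by DESeq2. The share at an unadjusted p below 0.05 was 22.6% in Gcn2+/+ and 19.2% in Gcn2+/-, against 17.3% and 14.7% of all genes.

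The gene that fell in both backgrounds was Dffa, which encodes ICAD, the chaperone and inhibitor of the caspase-activated DNase. Cleavage of ICAD during apoptosis is known to free the DNase to cut DNA between nucleosomes. It stood at 71.6, 61.3, 70.8 and 65.4 CPM in Gcn2+/+ Gars mutant cords, against 96.9, 86.4, 97.3 and 91.6 CPM in wild-type Gars cords. In Gcn2+/- cords the values were 75.5, 76.5, 66.0 and 61.1 CPM in mutant and 97.1, 98.0, 84.7 and 98.9 CPM in wild-type libraries. The groups did not overlap in either background, which held for 0.241% of all genes with the mutant lower in both. In Gcn2-/- cords mutant libraries ran at 79.2, 80.8, 83.5, 86.0 and 85.5 CPM, and wild-type libraries at 85.9, 93.8 and 89.1 CPM, with a slight overlap. The log2 fold changes were -0.45 ± 0.07 (edgeR, adjusted p = 0.0031) in Gcn2+/+, -0.43 ± 0.07 (adjusted p = 0.00885) in Gcn2+/- and -0.12 ± 0.07 (adjusted p = 0.941) in Gcn2-/-. The difference of effects did not pass, at 0.33 ± 0.11 (adjusted p = 0.91) for Gcn2-/- minus Gcn2+/+ and 0.02 ± 0.10 (adjusted p = 0.938) for Gcn2+/- minus Gcn2+/+. Within the sets of title numbers the Dffa difference was -0.45 and -0.53 in Gcn2+/+ and -0.42 and -0.47 in Gcn2+/-. Without mutant replicates 2 and 4 it was -0.39 (adjusted p = 0.087) in Gcn2+/+, and without wild-type replicate 4 it was -0.39 (adjusted p = 0.0773) in Gcn2+/-. Dffa was the sixth gene most opposite to Hrk over the libraries (r = -0.75).

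The gene that rose was Sesn2, a stress-induced inhibitor of mTORC1 and a target of ATF4 and p53. Its level was 24.6, 30.5, 31.6 and 24.4 CPM in Gcn2+/+ Gars mutant cords against 19.0, 17.9, 16.9 and 17.5 CPM in wild-type Gars cords, a log2 fold change of 0.63 ± 0.09 (edgeR, adjusted p = 0.00101), and 0.18 (adjusted p = 0.941) in Gcn2-/- and 0.21 (adjusted p = 0.295) in Gcn2+/-. In Gcn2-/- the mutant libraries, at 19.4 to 21.1 CPM, lay above the wild-type ones, at 16.8 to 19.4 CPM, by less than the rounding. There 2.11% of all genes were higher without overlap. In Gcn2+/- the groups overlapped. It lies in the list of the ATF4 and CHOP death branch, whose 8 tested genes were all above 0 in Gcn2+/+ with a median of 0.43, against 0.01 for all genes. Chac1, a glutathione-degrading enzyme of the list, had 0.53 ± 0.14 (adjusted p = 0.0798) in Gcn2+/+ and 0.45 ± 0.14 (adjusted p = 0.203) in Gcn2+/-. That list's median was 0.18 in Gcn2-/- and 0.21 in Gcn2+/-.

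**Figure D4:**
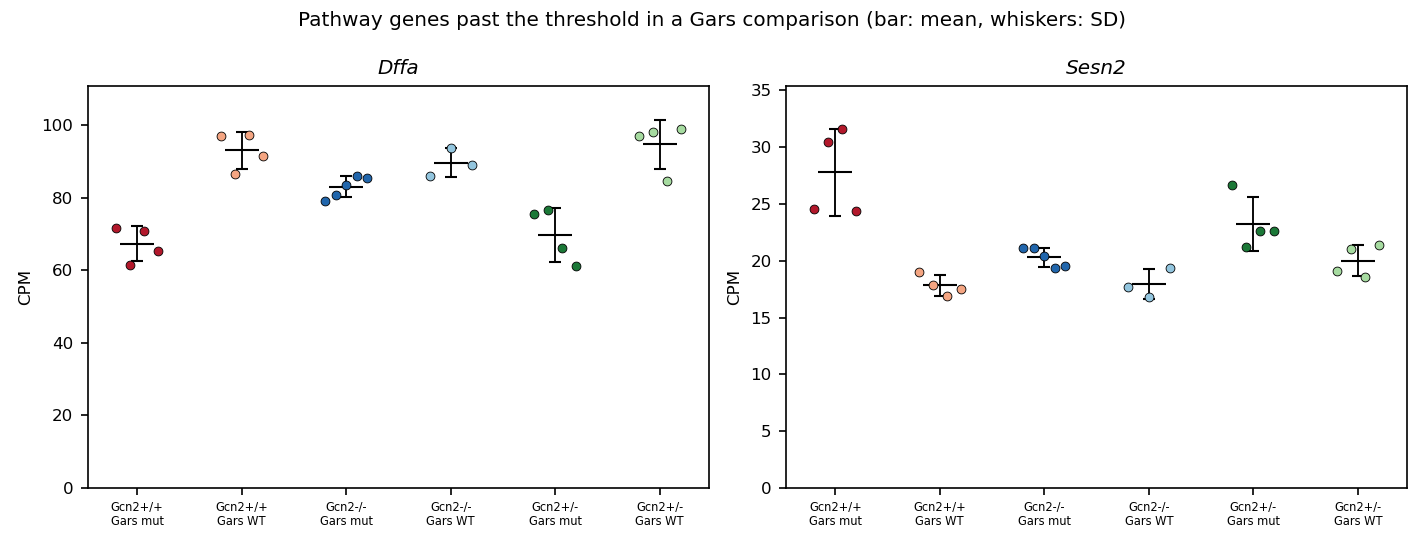
Level of Dffa (left) and Sesn2 (right) in CPM (vertical axes, from 0) by library, Gcn2 and Gars genotype, with Gars mutant left of wild-type Gars; points are libraries, bars the mean and whiskers the SD. Dffa mutant libraries lie below the wild-type ones in Gcn2+/+ (61.3 to 71.6 against 86.4 to 97.3 CPM) and Gcn2+/-, and Sesn2 mutant libraries above them in Gcn2+/+ (24.4 to 31.6 against 16.9 to 19.0 CPM). Sesn2 mutant libraries also lie above the wild-type ones in Gcn2-/-, by a very narrow margin.

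The kinases and adaptors that feed JNK did not pass the threshold for the Gars allele in any Gcn2 genotype. Map3k12 (DLK), the kinase through which axon injury is known to reach JNK, had log2 fold changes of 0.01, -0.06 and -0.04 in Gcn2+/+, Gcn2-/- and Gcn2+/-, and its relative Map3k13 (LZK) -0.29, 0.02 and -0.23. Map2k4 (MKK4), which phosphorylates JNK, had -0.16 ± 0.05 (adjusted p = 0.146) in Gcn2+/+. The 21 upstream kinases tested had medians of 0.01, 0.03 and -0.08, and the 11 scaffolds and phosphatases -0.01, 0.06 and -0.04. Among scaffolds, Spag9 (JIP4), which ties JNK cargo to axonal motors, had -0.22 ± 0.07 (adjusted p = 0.118) in Gcn2+/+. Jun, the main substrate, stood at 0.09, 0.15 and -0.26, and Junb at -0.47 ± 0.18 (adjusted p = 0.261) in Gcn2+/-. The 14 AP-1 genes had medians of -0.01, 0.21 and -0.11. Medians of all genes were 0.01, 0.00 and -0.01 in the same order.

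Among the other apoptosis genes, medians ran in both directions. The 5 BH3-only genes outside the 8 had medians of 0.12, -0.07 and -0.02 in Gcn2+/+, Gcn2-/- and Gcn2+/-, the 5 anti-apoptotic BCL2 genes -0.11, -0.05 and 0.02, and the 20 genes of the apoptosome and caspases -0.03, -0.04 and -0.03, with Dffa the only one past the threshold. Bnip3, a mitochondrial BH3-only gene, had -0.26 ± 0.08 (adjusted p = 0.128) in Gcn2+/+, and Bcl2l2 (BCL-W), a survival gene of neurons, -0.14 ± 0.04 (adjusted p = 0.118). Apaf1, the core of the apoptosome, had log2 fold changes of -0.06, -0.16 and 0.03. Bcl2l1 (BCL-XL), which protects neurons, stood at 0.03, 0.08 and 0.02. Casp8, the caspase of death receptors, had -0.65 ± 0.20 (adjusted p = 0.203) and Birc3 (cIAP2) -0.64 ± 0.19 (adjusted p = 0.191) in Gcn2+/-. The 13 death receptor genes had medians of 0.08, 0.05 and -0.15, and the 20 genes of p53 and its targets -0.02, 0.00 and 0.00. Phlda3, a p53 target, had the smallest p of the pathway genes in Gcn2-/-, at 0.41 ± 0.10 (edgeR, adjusted p = 0.65). Genes known to rise in neurons with injured axons (15 tested) had medians of 0.14, 0.01 and -0.07, and genes of axon degeneration (9 tested) -0.12, 0.00 and -0.02. Gal (galanin) had 0.48 ± 0.18 (adjusted p = 0.173) in Gcn2+/+, Lgals1 -0.81 ± 0.19 (adjusted p = 0.105) in Gcn2+/- and Ngfr, the low-affinity neurotrophin receptor that Schwann cells also express, 1.06 ± 0.37 (adjusted p = 0.157) in Gcn2+/+. For Casp8, Birc3, Lgals1 and Ngfr no value without the libraries with high Schwann markers is given. The part of those libraries in these fold changes was not tested. The 5 BAX-like and divergent BCL2 genes had medians of 0.25, 0.13 and -0.22, without a call.

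**Figure D5:**
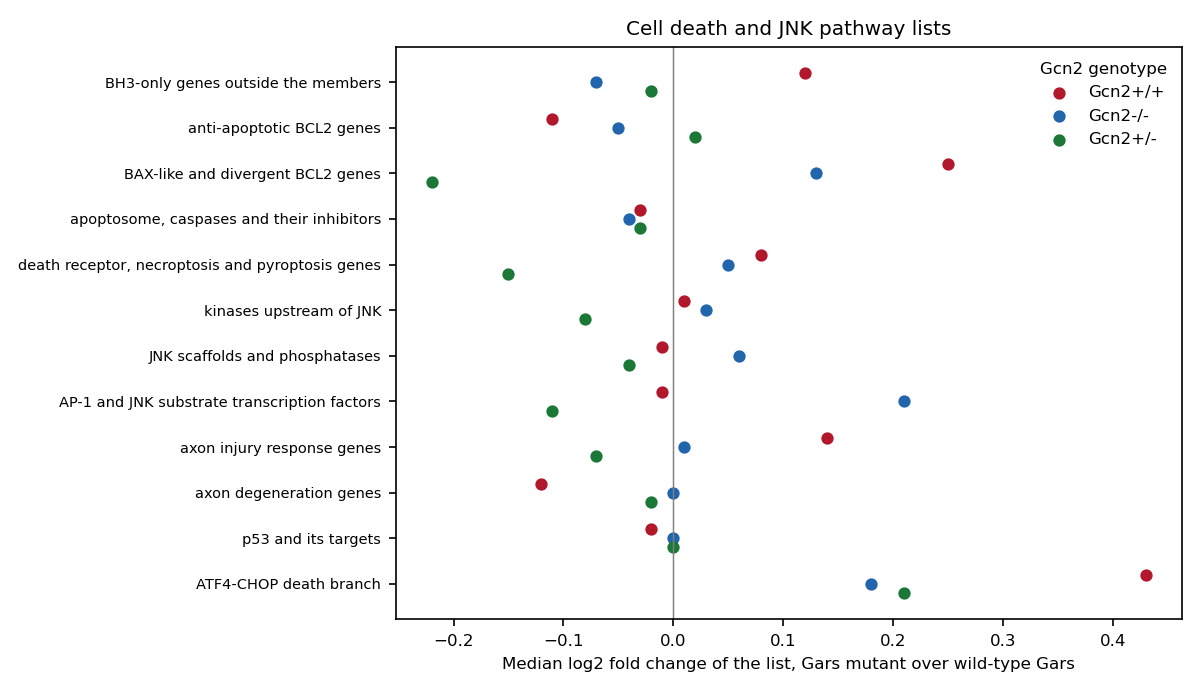
Median log2 fold change, Gars mutant over wild-type Gars (horizontal axis), of the pathway lists (rows) in Gcn2+/+, Gcn2-/- and Gcn2+/- cords. The ATF4 and CHOP list lies farthest right in Gcn2+/+ (0.43), and the other lists lie between -0.22 and 0.25 in the 3 Gcn2 genotypes.

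Of the 146 genes, 6 (4.11%, against 3.70% of all genes) differed in their Gars effect between Gcn2+/- and Gcn2+/+ cords. The effect was higher in Gcn2+/- for Bnip3l, a mitophagy receptor (difference 0.45 ± 0.12, adjusted p = 0.0473), and Taok1, a kinase upstream of JNK and p38 (0.62 ± 0.15, adjusted p = 0.0399). It was lower for Bak1, the partner of Bax (-0.47 ± 0.12, adjusted p = 0.0431), the JNK-activating kinase Map3k11 (-0.47 ± 0.11), the AP-1 subunit Jund (-0.95 ± 0.20) and Trp53 (-0.47 ± 0.11), each of these 3 at an adjusted p of 0.0399. Each gene had opposite signs in the 2 backgrounds and passed in neither alone. Jund, the largest, stood at 77.4, 66.8, 62.3 and 59.9 CPM in Gcn2+/+ Gars mutant and 51.4, 45.1, 43.1 and 43.7 CPM in wild-type Gars libraries, and at 48.3, 40.1, 59.2 and 57.3 CPM in Gcn2+/- mutant and 67.2, 78.2, 67.8 and 60.8 CPM in wild-type libraries. The mutant libraries were all higher in the first and all lower in the second. Its log2 fold change was 0.52 in Gcn2+/+, -0.44 in Gcn2+/- and 0.49 in Gcn2-/-. None of the 6 passed without Gcn2+/+ mutant replicates 2 and 4 (adjusted p 0.107 to 0.118), without Gcn2+/- wild-type replicates 1 and 3 (0.122 to 0.124), with the Schwann marker score as a term (0.142 to 0.175) or with the mitochondrial share as a term (0.236 to 0.5), and calls over all genes for this difference fell to 0 in each. The sizes changed little without the libraries, with Jund at -1.03 and -0.96, Bak1 at -0.47 and -0.46 and Bnip3l at 0.43 and 0.49 in the first and the second of these fits. With the mitochondrial share as a term, Taok1 was 0.29, Bnip3l 0.25 and Jund -1.08.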

How the data were processed

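Poly(A) RNA of 24 whole spinal cords was sequenced as 75 bp paired-end reads, per the labels' protocols (the kits and reagent versions used are not tied to single libraries there). Per the submitters' processing notes the authors' tools were Bowtie2 2.2.0 and RSEM 1.2.12. The deposited files give for each gene an expected count, a TPM and, as the signal tested for transcript usage, a mean transcript length in bases that the authors' quantification weights by transcript share, per the file headers. Which genome build they used is not given in the sources used here. Gene symbols and positions came from GENCODE M21 (GRCm38), which matched 37607 of 38924 genes; the rest held 0.26% of the counts. Here those expected counts, rounded from the deposited values, were filtered with filterByExpr, scaled by TMM and fitted in edgeR 4.0.16 (R 4.3.3; robust quasi-likelihood, common BCV 0.225) as 6 genotype groups plus sex over all 24 libraries, with Benjamini-Hochberg adjustment and a threshold of 0.05. Log2 CPM used a prior count of 2. The deposited length values were tested with limma 3.58.1, and deposited TPM values were only averaged. DESeq2 1.42.0 was an alternative. The edgeR and limma steps were tested on simulated data with known changes. Replicate pairs differed by at least 12.3 times sampling noise (chi-square per degree of freedom), so no library was counted as a repeat. Title numbers pair no samples by the labels.

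The 8 genes, the pathway and marker lists and the alternatives were chosen with earlier results of these data known. Named genes of a list are among its 4 with the smallest p in a comparison, and like and opposite genes are the 5 highest and 5 lowest Pearson correlations. Alternatives chosen after seeing the data were leaving out Gcn2+/- wild-type Gars replicates 1 and 3, and a Schwann marker score or the mitochondrial share as a term.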

Additional observations from a re-analysis of the deposited data

Results flagged for a closer look

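Single libraries stood apart from the rest of their group for 5 of 80 sets of a gene and a group of 4 or 5 libraries, by a gap test that marks about 1 set in 20 by chance. Bax had 15.7 CPM in Gcn2-/- Gars mutant replicate 2, against 13.2 to 13.8 CPM in the other libraries of the group. Bbc3 had 1.59 CPM in Gcn2+/- Gars mutant replicate 3, against 2.11 to 2.21 CPM. Hrk had 5.09 CPM in Gcn2+/+ wild-type Gars replicate 3, against 5.35 CPM in each of the others, a gap that is large only beside the closeness of those values. In Gcn2+/- wild-type Gars replicate 3, a library with high Schwann markers, Dffa had 84.7 CPM against 97.1 to 98.9 CPM and Trp53 had 27.9 CPM against 23.0 to 23.4 CPM.

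The Gars effect differed between Gcn2+/- and Gcn2+/+ cords past the threshold (edgeR, difference of effects on the log2 scale, Gcn2+/- minus Gcn2+/+) for Mapk8 at 0.56, Taok1 at 0.62, Bnip3l at 0.45, Bak1 at -0.47, Map3k11 at -0.47, Trp53 at -0.47 and Jund at -0.95. Mapk8 was picked with its values known. Of all genes 3.70% differed in this way, and the libraries with high Schwann markers are Gars mutant ones in Gcn2+/+ and wild-type Gars ones in Gcn2+/-. Without those libraries the calls were lost and the sizes were close to these, and their part in the differences was not tested further.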

How the results depend on the processing

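For the called pathway genes Dffa, Sesn2 and the 6 genes that differed between backgrounds, each combination of a gene, a comparison and a fit was counted. The threshold was lost in 128 combinations, and the sign changed in 0. Dffa lost it in 2 fits in Gcn2+/+ and 3 in Gcn2+/-, and Sesn2 in 1 in Gcn2+/+. The 6 genes lost it in 17 (Jund) to 27 (Bnip3l) fits each, among 24 that leave out a library and 12 others. Small fold changes of the 8 genes did change sign between fits, such as Bbc3 in Gcn2+/- (-0.22 to 0.02 leaving out a library). The counts over all genes depended on the setting. In Gcn2+/+ the 110 genes became 72 without a filter, 203 with library totals (150 higher and 53 lower, against 37 and 73), 201 without sex, 57 with the 4 genotypes of the design text, 11 with both groups alone, 35 without mutant replicates 2 and 4, 40 with the Schwann score, 57 with the mitochondrial share, 646 by DESeq2 and 47 to 600 leaving out a library (600 without wild-type replicate 1). In Gcn2-/- the 2 genes became 1 with the title block, the 2 title sets, the 4 genotypes, both groups alone, the mitochondrial share or without Gcn2+/- wild-type replicates 1 and 3, 31 by DESeq2 and 1 to 3 leaving out a library. In Gcn2+/- the 31 became 4 with the title block, 5 with both groups alone, 13 without wild-type replicates 1 and 3, 18 with the Schwann score, 20 with the mitochondrial share, 186 by DESeq2 and 18 to 66 leaving out a library. The difference Gcn2-/- minus Gcn2+/+ went to 8 genes (2 as fitted) without sex, 0 with the title block, 1 with title sets, 4 without mutant replicates 2 and 4, 35 by DESeq2 and 0 to 6 leaving out a library. The difference Gcn2+/- minus Gcn2+/+ (644) went to 10 without a filter, 0 with the title block, with the groups alone, with the Schwann score, with the mitochondrial share, without Gcn2+/+ mutant replicates 2 and 4 or without Gcn2+/- wild-type replicates 1 and 3, 1716 by DESeq2, and 0 to 1784 leaving out a library; with library totals it was 533 (182 higher and 351 lower, against 427 and 217). Gcn2 loss (5) gave 8 with the title block, 12 with both groups alone, 36 by DESeq2 and 3 to 10 leaving out a library, and sex (14) 8 with the 4 genotypes, 22 by DESeq2 and 10 to 16. Transcript lengths gave 1 with the title block and 0 to 2 leaving out a library in Gcn2-/- (0), and 2 with effective length, without sex or with the title block and 0 to 9 in Gcn2+/- (1). The causes were not tested.

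With the title number, which some libraries share across groups, as a replicate block, the Gcn2+/+ count was 110 again, but as 50 higher and 60 lower genes. What the number marks is not said. Dffa lost the threshold with both groups alone (adjusted p 0.202 in Gcn2+/+, 0.264 in Gcn2+/-) and, in Gcn2+/-, with the title block (-0.46, adjusted p = 0.0865). Sesn2 lost it with both groups alone (0.58, adjusted p = 0.316). At 31 to 80 counts for Bbc3 and 87 to 243 for Hrk, even changes of several times the errors given could stay short of the threshold. Hrk in Gcn2+/-, at 0.57 ± 0.12, was not past it by edgeR.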

Other observations

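Members of the set varied together only loosely across the 24 libraries. The closest pairs were Bax and Mapk10 (Pearson's r = -0.53 of log2 CPM), Mapk9 and Mapk10 (0.51), Hrk and Bcl2l11 (0.48) and Hrk and Mapk8 (0.48), all from libraries that share genotype groups and scaling. Mapk8 ran most like Pgap1 (0.90) and the mitochondrial gene mt-Atp8 (0.89) and most opposite to Med15 (-0.88), and Mapk10 ran most like Sh3gl2 (0.88) and most opposite to Stab1 (-0.90), which are given as values.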
